A study of Homo sapiens with 2 samples.

Results

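The miRNAs described here are the mature products of the hairpins miR-221 and miR-222, of which the deposited table lists 4 among 2218 mature miRNAs. They were chosen by name as hsa-miR-221-3p, hsa-miR-221-5p, hsa-miR-222-3p and hsa-miR-222-5p, written below without the species prefix. They were measured by small RNA sequencing in K562, a human erythroleukaemia line that resembles precursors of red cells and megakaryocytes. The first of the libraries was made from K562 cells carrying a GFP lentivirus, which served as the control. The other was made from K562 cells carrying a lentivirus for QKI5, a mainly nuclear form of Quaking, which binds RNA. Both groups share the cell line, its culture medium and the transduction step, and each has 1 library, so no difference has a replicate check and no p-value for QKI5 is given. Whether each culture was pooled or clonal is not stated in the labels.

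miR-221 and miR-222 are processed from a shared transcript and load their 3p strands into Argonaute. The 3p strands are known to repress KIT, the receptor for stem cell factor, and CDKN1B, the cell cycle inhibitor p27. In blood progenitors they are known to decline as red cells mature, which relieves the repression of KIT and is linked to the expansion of early erythroblasts. The deposited values hold no mRNA, so KIT and CDKN1B themselves were not analysed here.

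The mature sequences show why the pair is treated as 1 regulatory unit. RefSeq (GRCh38.p14) held 3 of the 4 members. They are printed 5′ to 3′ with bases 2 to 8, the seed that pairs with targets, in capitals.
miR-221-3p: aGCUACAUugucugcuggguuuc
miR-222-3p: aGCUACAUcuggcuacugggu
miR-222-5p: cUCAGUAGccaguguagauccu
Both 3p strands carry the seed GCUACAU. Of 2370 mature human miRNAs in the RefSeq table, 2 carry it, and these are miR-221-3p and miR-222-3p. The first 8 bases of the pair were identical, and 11 of 21 positions matched when the strands were laid side by side without gaps. Their longest shared run was 8 bases, so a read covering most of the strand differs between them at several positions. The longest run shared with any of 1943 other listed miRNAs with a sequence was 9 bases for miR-221-3p (with miR-329-5p) and 8 bases for miR-222-3p. For miR-222-5p it was 11 bases, with miR-1251-3p, which had 0 reads in both libraries.

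The hairpins show where the 3p strands, in capitals, lie.
MIR221: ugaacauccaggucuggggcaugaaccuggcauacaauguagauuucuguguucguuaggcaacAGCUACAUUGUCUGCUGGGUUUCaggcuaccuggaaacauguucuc
MIR222: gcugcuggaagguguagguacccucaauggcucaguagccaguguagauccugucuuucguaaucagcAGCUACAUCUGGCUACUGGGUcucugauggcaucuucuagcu
Each hairpin has 110 bases and 1 copy. GENCODE release 29 (GRCh38) places both on the minus strand of chromosome X, inside the intron of a 2-exon transcript of the long non-coding RNA MIR222HG. Both lie outside the other MIR222HG transcript of that release. There were 0 other hairpins between them, and MIR222 is transcribed first. The authors mapped to hg19, so no positions are given.

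The label of a KIT-targeting pair was checked against the KIT transcript itself. The letters ATGTAGCA, the complement of the seed followed by an A, were searched on the sense strand of the longest 3' untranslated region of each coding gene in GENCODE, and each site is printed with its upstream bases and the match in capitals.
KIT, first site: tagtttggattcttATGTAGCA
KIT, second site: ttgtaaatattgaaATGTAGCA
CDKN1B, first site: tctaaaagcgttggATGTAGCA
CDKN1B, second site: agtttttaccttttATGTAGCA
KIT held 2 sites in 2158 bases and CDKN1B 2 sites in 1344 bases. Among 19111 such regions, 3.30% held at least 1 such match. The share was 3.60% of regions within 10% of the length of KIT's and 1.98% of those within 10% of CDKN1B's. A match describes the letters and does not show repression in these cells.

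The GFP library rested on 23262340 reads and the QKI5 library on 6553945, a 3.55-fold difference in depth, and listed miRNAs took up 66.3% and 59.5% of them. The values were reads per 1000000 reads of the library (RPM), and reads were recovered from them as described under processing. A read was seen for 1812 of the 2218 listed miRNAs with GFP and for 1448 with QKI5. The erythroid miRNAs miR-451a and miR-144-3p, both made from a locus active in red cell precursors, were present in both libraries. Per library, miR-451a stood at 2798 RPM (GFP) and 2187 RPM (QKI5), a ratio of 0.782. miR-144-3p stood at 548 RPM (GFP) and 293 RPM (QKI5), a ratio of 0.535, so both were lower with QKI5, as miR-221-3p was. Other strands linked to red cells were higher with QKI5 as deposited, so the erythroid miRNAs did not share 1 direction. With GFP and QKI5, miR-144-5p was at 32.5 and 52.3 RPM and miR-486-5p at 528 and 608 RPM. In the same order, miR-486-3p was at 165 and 179 RPM and miR-210-3p at 75.1 and 144 RPM. Their part in the results below was not tested. QKI5 RNA was not measured, so the overexpression was not checked.

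miR-221-3p was the most abundant of the 4 strands in both libraries. It had 1691 reads in the GFP library, 72.7 RPM with an exact 95% Poisson interval of 69.3 to 76.2. It had 351 reads in the QKI5 library, 53.6 RPM with an interval of 48.1 to 59.5. The level was thus lower with QKI5, and the intervals did not overlap. The fold was 1.36-fold lower (1.21 to 1.53, exact conditional binomial interval). Its size depends on how the libraries are scaled: the log2 ratio was -0.44 as deposited, -1.01 with a trimmed mean of M values and -1.10 with the median of ratios. All such intervals cover counting error only, since the reads carry no molecular identifiers and are no count of molecules, and the spread between cultures is unknown. In such bulk libraries, less of a miRNA per cell and fewer cells that make it cannot be told apart. Among all listed miRNAs miR-221-3p ranked 172 with GFP and 198 with QKI5.

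miR-222-3p, its seed partner, was less abundant and stood on the other side of equality. It had 206 reads in the GFP library, 8.86 RPM (7.69 to 10.2). It had 78 reads in the QKI5 library, 11.9 RPM (9.41 to 14.9). The level was higher with QKI5 while the 2 Poisson intervals overlapped, and the ratio was 1.34 (1.02 to 1.75). That direction depends on how the libraries are scaled. The log2 ratio was 0.42 as deposited, -0.15 with a trimmed mean of M values and -0.23 with the median of ratios over miRNAs detected in both libraries. miR-222-3p ranked 328 with GFP and 324 with QKI5.

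The 5p strands, which are the minor products of both hairpins, were near the limit of detection. miR-222-5p had 18 reads in the GFP library, 0.774 RPM (0.459 to 1.22), and 1 read in the QKI5 library, 0.153 RPM (0.00386 to 0.850). Its ratio of QKI5 over GFP was 0.197 with a counting interval of 0.00473 to 1.25, which includes 1. miR-221-5p had 2 reads with GFP and 0 with QKI5. A count of 0 allows up to 0.458 RPM there, which lies above the 0.0860 RPM of the GFP library, so a difference in miR-221-5p was not detectable at this depth.

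**Figure D1:**
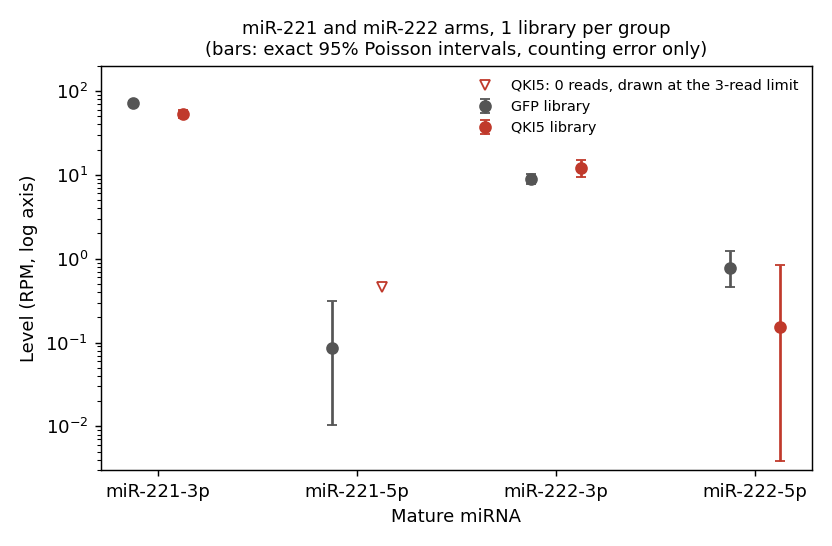
Level in RPM (log axis) of each of the 4 mature miRNAs in the GFP library (grey) and the QKI5 library (red), with exact 95% Poisson intervals as bars and an open triangle at the 3-read limit of 0.458 RPM for the 0 reads of miR-221-5p. miR-221-3p lies highest in both libraries, at 72.7 and 53.6 RPM, and both 5p strands lie below 1 RPM.

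When miRNAs were ordered by their mean over both libraries, 22% of the top 200 differed by at least 2-fold either way, and 28% of the top 400 did. miR-221-3p was the only member in the 200, at rank 186. miR-222-3p was in the 400, at rank 327, and the 5p strands were in neither set, at ranks 766 and 1579. Of the 2 members in the 400, 0 differed by 2-fold as deposited, while miR-221-3p passed 2-fold lower with the median of ratios and with the trimmed mean of M values. The counting interval excluded 1 for both of them, as it did for 80.8% of the 400, so that property does not set the pair apart. On the log2 scale with a pseudocount of 0.153 RPM, the ratio was -0.44 for miR-221-3p and 0.42 for miR-222-3p. The median of the 400 was 0.21, with quartiles of -0.36 and 0.83, so miR-221-3p lay below the lower quartile and miR-222-3p between the median and the upper one. Of the 400, 89 had a lower log2 ratio than miR-221-3p and 242 a lower one than miR-222-3p. Setting the reads of each miRNA against the library totals in an exact binomial test (Benjamini-Hochberg adjusted, threshold 0.05), which compares these libraries and not the conditions, called 426 of 1995 detected miRNAs. miR-221-3p was among them, and miR-222-3p, miR-221-5p and miR-222-5p were not.

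**Figure D2:**
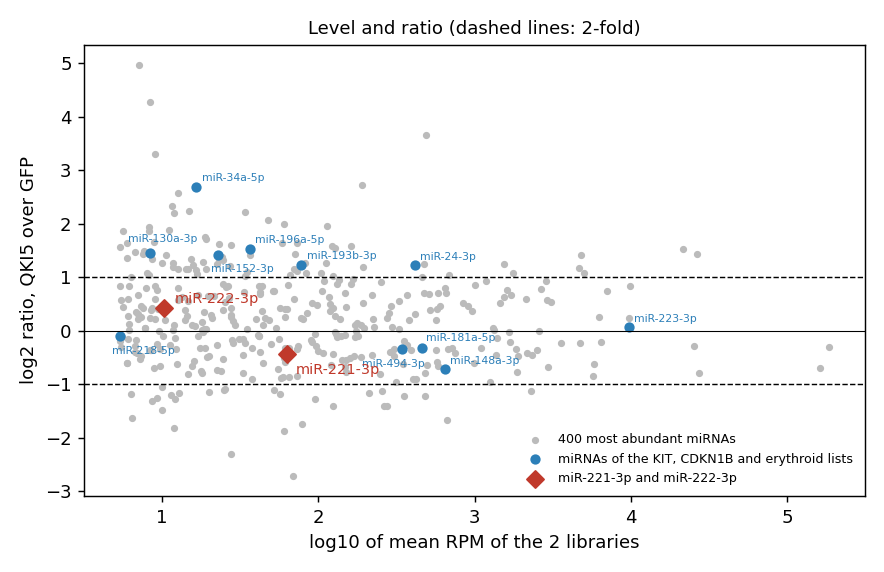
Log2 ratio of QKI5 over GFP against the log10 of the mean RPM for the 400 most abundant miRNAs (grey), with miR-221-3p and miR-222-3p as red diamonds and members of the KIT, CDKN1B and erythroid lists in blue. The dashed lines mark 2-fold, and both diamonds lie between them, at -0.44 and 0.42.

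The balance within the pair does not depend on any factor that scales a whole library, because both strands were read in the same library. There were 8.21 miR-221-3p reads per miR-222-3p read in the GFP library (7.10 to 9.53) and 4.50 in the QKI5 library (3.51 to 5.83). The balance was thus 1.82-fold lower with QKI5 (1.35 to 2.44, exact conditional interval), and the intervals of the libraries did not overlap. Expressed as a share, miR-222-3p made up 10.9% of the reads with the seed GCUACAU in the GFP library (9.49% to 12.3%, Clopper-Pearson) and 18.2% in the QKI5 library (14.6% to 22.2%). The change in log2 ratio was -0.86, and -0.76 when both strands of each hairpin were summed. It was -0.74 with a linear trend of the log2 ratio on GC content removed.

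The pool of both strands, which share their seed and so their seed matches in KIT and CDKN1B, was mostly miR-221-3p. It stood at 1897 reads in the GFP library, 81.5 RPM (77.9 to 85.3), and at 429 reads in the QKI5 library, 65.5 RPM (59.4 to 72.0). The pool was 1.25-fold lower with QKI5 (1.12 to 1.39) as deposited.

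**Figure D3:**
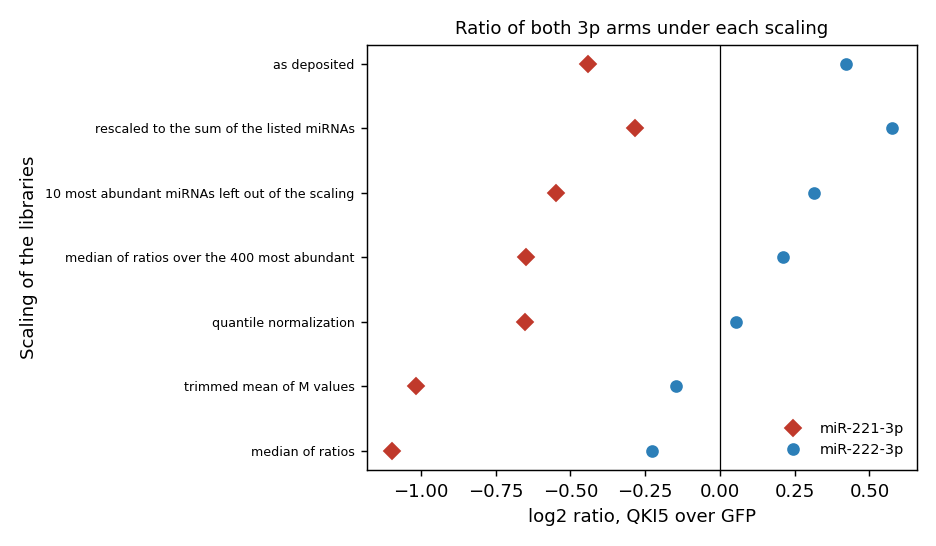
Log2 ratio of QKI5 over GFP of miR-221-3p (red diamonds) and miR-222-3p (blue circles) under 7 ways of scaling the libraries. miR-221-3p is below 0 in each, from -1.10 to -0.28, and miR-222-3p runs from -0.23 to 0.57.

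A divergence of this size was common among the neighbouring hairpins compared in these libraries. Each hairpin was represented by its most abundant strand among those with a RefSeq sequence and made from 1 hairpin. For some hairpins that was the minor strand. Pairs of consecutive hairpins among those so represented, on the same genomic strand and at most 10 kb apart, numbered 63. A hairpin without such a strand was passed over, so the hairpins of a pair can have another hairpin between them. Each representing strand had at least 100 reads summed over the libraries. A hairpin in a cluster can enter 2 such pairs, so the pairs are not independent. Their log2 ratios differed by at least 1 in 34.9% of pairs. The pair of miR-221-3p and miR-222-3p differed by 0.86, against a median of 0.69 over the 63. The difference was larger in 25 pairs and smaller in 37. As deposited, the log2 ratios had opposite signs in 29 of the 63 pairs. Among these 63, 1 other pair, miR-1185-1-3p and miR-1185-2-3p of the 14q32 region, also shared a seed and differed by 0.41. Neighbours with a shared seed in strands made from more than 1 hairpin were not compared, so this is no full list.

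**Figure D4:**
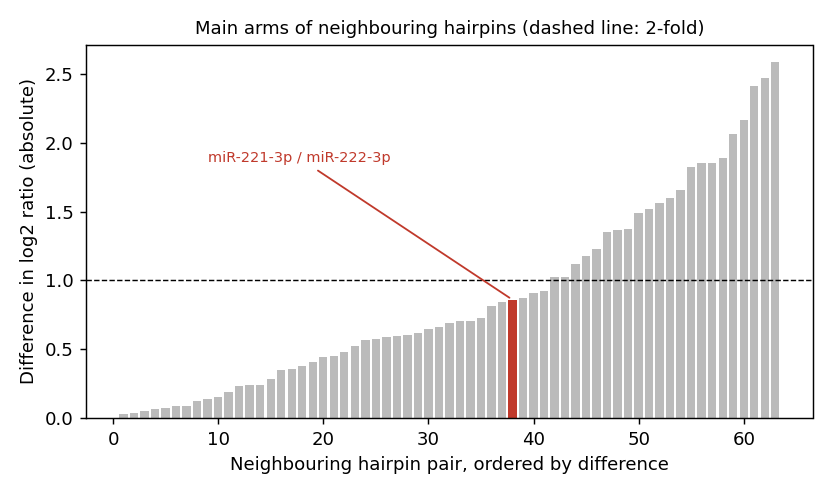
Absolute difference in log2 ratio (QKI5 over GFP) in 63 pairs of neighbouring hairpins, ordered by size, with the dashed line at 2-fold. Each hairpin is shown by 1 strand, which for some is the minor one, and hairpins without a usable strand were passed over. The red bar is the pair of miR-221-3p and miR-222-3p, at 0.86, below the 2-fold line.

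The choice of strand was compared within each hairpin. The 5p strand gave 8.04% of miR-222 reads in the GFP library (18 of 224, 4.83% to 12.4%) and 1.27% in the QKI5 library (1 of 79, 0.0320% to 6.85%). These intervals overlapped. The ratio of 5p to 3p in the QKI5 library was 0.147 of that in the GFP library, with an exact conditional interval of 0.00348 to 0.964 that rests on 1 read. Of 118 hairpins with at least 100 reads of each strand, 37.3% shifted by at least 2-fold, and neither miR-221 nor miR-222 was among the 118. Of 225 hairpins with at least 10 reads of each strand, a minimum chosen after seeing the data so that miR-222 enters, 40.9% shifted by at least 2-fold. The log2 shift of miR-222 was -2.02, and 17 of the 225 shifted more in size. That shift was -1.01 with a pseudocount of 1 RPM and -2.77 with none, so its size depends on the pseudocount. For miR-221 the 5p strand gave 0.118% of reads in the GFP library (2 of 1693, 0.0143% to 0.426%). In the QKI5 library it gave 0 of 351, which allows a share of up to 0.855% at the 3-read limit (1.05% by the exact interval). A shift was therefore not detectable.

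Other miRNAs reported to target KIT did not share 1 direction. The list held 6 miRNAs, of which miR-137 was not analysed here. Of 4 among the 400 most abundant, 2 were at least 2-fold higher with QKI5, 0 were lower and 2 lay within 2-fold, against 20.8% higher and 7.25% lower over the 400. Their median log2 ratio was 0.56, beside 0.21 over the 400. miR-34a-5p, a target of p53, was at 29 RPM against 4.34 RPM in the GFP library, and its ratio was 6.68 (5.22 to 8.59). miR-193b-3p was at 110 and 46.6 RPM, a ratio of 2.36 (2.14 to 2.59). With the median of ratios its log2 ratio was 0.58, under 2-fold. miR-494-3p of the 14q32 region was at 303 and 386 RPM, a ratio of 0.786 (0.748 to 0.825), and with the median of ratios it passed 2-fold lower (log2 ratio -1.004). miR-218-5p was at 5.19 and 5.59 RPM, and its ratio of 0.928 (0.617 to 1.36) included 1. miR-193a-3p, outside the 400, had 24 reads with QKI5 and 41 with GFP, a ratio of 2.08 (1.20 to 3.52). miR-494-3p, at 386 RPM, and miR-221-3p, at 72.7 RPM, were the most abundant KIT-linked strands of the GFP library. In the QKI5 library miR-193b-3p, at 110 RPM, stood above miR-221-3p, at 53.6 RPM.

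Of the 5 miRNAs reported to target CDKN1B, all 5 were among the 400. With QKI5, 3 were at least 2-fold higher, 0 at least 2-fold lower and 2 within 2-fold, and their median log2 ratio was 1.23. Over the 400, 20.8% were at least 2-fold higher, 7.25% were at least 2-fold lower and the median was 0.21. miR-24-3p was at 580 RPM against 248 RPM in the GFP library, and its ratio was 2.34 (2.24 to 2.44). miR-152-3p had a ratio of 2.68 (2.24 to 3.21) and miR-196a-5p, made from the HOX loci, 2.91 (2.53 to 3.36). miR-148a-3p, which shares its seed family with miR-152-3p, was at 487 and 800 RPM, a ratio of 0.609 (0.586 to 0.632), and with the median of ratios its log2 ratio was -1.37. miR-181a-5p stood at 0.796 (0.763 to 0.830). With the median of ratios the log2 ratios of miR-24-3p, miR-152-3p and miR-196a-5p were between 0.57 and 0.88, under 2-fold.

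Among miRNAs reported to decline together with miR-221 and miR-222 in red cell maturation, 3 of 5 were in the 400. miR-24-3p and miR-130a-3p were at least 2-fold higher with QKI5, and the latter was at 12.4 against 4.43 RPM, a ratio of 2.79 (2.06 to 3.77). That is 2 of 3, against 20.8% over the 400. miR-24-3p was already counted in the CDKN1B list, so these lists are not independent. With the median of ratios both were under 2-fold, at log2 ratios of 0.57 for miR-24-3p and 0.81 for miR-130a-3p. miR-223-3p, a myeloid miRNA, was at 9840 and 9441 RPM, a ratio of 1.04 (1.03 to 1.05) that was below 1 under 5 of 6 other scalings. miR-150-5p and miR-155-5p, which mark lymphocytes and activated leukocytes, had 1 read with QKI5 and 2 with GFP each. Both 3p strands thus stood well below miR-223-3p and above the lymphocyte miRNAs.

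Over the 2 libraries, the miRNAs nearest to miR-221-3p in level and ratio were miR-132-5p, miR-432-5p and miR-4454, by Euclidean distance in log2 RPM among the 399 other most abundant miRNAs. miR-132-5p, the nearest, was at 51.4 RPM in the QKI5 and 71.3 RPM in the GFP library, a distance of 0.065. The nearest to miR-222-3p were miR-4664-5p, miR-32-3p and miR-576-5p. miR-4664-5p was at 11.1 RPM in the QKI5 and 8.30 RPM in the GFP library, a distance of 0.13.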

How the data were processed

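The authors deposited 1 value per library for 2218 mature miRNAs in 1 GFP and 1 QKI5 library of K562 cells. Per the labels' protocols, small RNA was isolated with a miRNA kit, made into Ion Torrent libraries and read on an Ion Proton. Bowtie 0.12.3 and hg19 are named per the submitters' processing notes. For the miRNA annotation, mismatches, multi-mapping and strand, nothing is given in the sources used here. The authors named the table RPKM and deposited RPM: within a column all values were multiples of the worth of 1 read (0.0430 RPM for GFP, 0.153 RPM for QKI5), and 100% of those above 0 were whole within 0.1 of a read. This gave the reads and library totals.

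Log2 ratios used log2(RPM + 0.153), which understates ratios of low miRNAs. Folds are plain ratios with exact conditional 95% intervals. An upper limit of 3 reads was set for a count of 0. With 1 library per group no dispersion could be estimated. The members and lists were chosen with earlier results of these data known. Named miRNAs are the 4 members, others with a member's seed (bases 2 to 8), the 3 nearest to each 3p member, and list members among the 400 most abundant. Outside this rule, some miRNAs were named after their values were seen. They are list members below the 400, the miR-1185 pair, and miR-329-5p and miR-1251-3p as closest in sequence. The erythroid miR-451a, miR-144-3p, miR-144-5p, miR-486-5p, miR-486-3p and miR-210-3p were also named in this way. RefSeq sequences matched 1946 listed miRNAs. The tests ran in Python 3.11.15 with numpy 2.4.6, scipy 1.17.1 and pandas 2.3.3. The ratio and its interval were tested on simulated Poisson counts. These hold counting error only, so spread between cultures was not covered.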

Additional observations from a re-analysis of the deposited data

How the results depend on the processing

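Alternatives covered the pseudocount, scaling, GC content, level filter and fold threshold. Over the 400 most abundant miRNAs the median log2 ratio moved by 0.16 with each library scaled to its total of listed miRNAs, -0.11 without the 10 most abundant, -0.25 under quantile normalization, -0.57 with a trimmed mean of M values and -0.66 with the median of ratios. The last 2 start from the 1265 miRNAs detected in both libraries, of which 717 had 10 or fewer QKI5 reads. The median of ratios uses all of them, while the trimmed mean drops extremes of ratio and level and gives miRNAs with more reads more weight. Against -0.44 as deposited, miR-221-3p stood at -1.10 with the median of ratios, -1.01 with the trimmed mean, -0.65 under quantile normalization and -0.65 with the median of ratios over the 400, the last chosen after seeing the data. miR-222-3p, at 0.42 as deposited, turned to -0.23 with the median of ratios and -0.15 with the trimmed mean, and kept its sign under the other 7 alternatives. The balance of the pair ranged from -0.87 to -0.74 over 4 alternatives. The number of miRNAs at least 2-fold higher, 30 of 200 as deposited, was 83 among the 400, 475 without a level filter, 59 at 1.5-fold, 4 with the median of ratios, 8 with the trimmed mean and 18 under quantile normalization. The number at least 2-fold lower, 14 as deposited, was 29, 145, 40, 63 and 54 under the first 5 of these. The number of hairpins whose strand ratio shifted by 2-fold was 44 of 118, and 92 of 225 with a minimum of 10 reads. Beyond the construction of each setting the cause was not tested. For miR-221-5p, with 0 and 2 reads, no ratio without a pseudocount could be had, nor one with the GC trend removed. The GC trend was fitted over 358 of 400 miRNAs, with a slope of 0.27 log2 units per 10 percentage points of GC. No paired analysis was possible because each group has 1 library. Depth limits both 5p strands, where 1 read in the QKI5 library is worth 0.153 RPM.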
